A study of Mus musculus with 13 samples.

Results

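The genes described here are 10 that give a simple epithelium its identity: the keratins Krt7, Krt8, Krt18 and Krt19, the adhesion gene Cdh1, the transcription factor gene Grhl2, and the surface and junction genes Crb3, Prom2, Marveld2 and Marveld3. They were taken by gene symbol from an Illumina mouse BeadChip that covered 18038 genes with 25697 probes, and 14 probes belonged to them. The array file named 6 of the 10 by the current symbol. The other 4 stood under older symbols (Krt8 as Krt2-8, Krt18 as Krt1-18, Krt19 as Krt1-19 and Grhl2 as Tcfcp2l3) and were matched by RefSeq accession. Of the 10, 9 passed the filter on dim probes and were tested, and Marveld2, whose 1 probe was detected on 0 of 13 arrays, was not.

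RNA came from cochleae of C57BL6 mice aged 3 days that carried Math1-nGFP, a reporter in which an Atoh1 (Math1) enhancer drives nuclear GFP in hair cells, so every population shares that transgene. Cells were sorted by GFP and by the surface proteins CD271, CD146 and CD326, and each sort was hybridised to its own array. HC, the GFP-positive cells that the labels call hair cells, had 4 arrays (A to D). The GFP-negative cells were divided into 4 gates. GER, labelled as cells of the greater epithelial ridge, was CD271-low, CD146-high and CD326-positive and had 3 arrays (A to C). DC, labelled as Deiters' and Claudius cells, was CD271-low, CD146-low and CD326-positive and had 2 arrays (A and B). CD271high was gated on high CD271 alone, is labelled as suspected macrophages and had 3 arrays (A to C). BM, labelled as cells from below the basilar membrane, was CD271-low and CD326-negative and had 1 array. The labels do not say whether replicates came from separate animals or how many animals were pooled, so the p-values cover the spread between these samples only, and that spread may be technical.

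Keratins form the intermediate filaments of epithelial cells as obligate pairs of a type I and a type II chain. Krt8 and Krt7 are type II chains and Krt18 and Krt19 type I chains, and these 4 are typical of single-layered epithelia such as the lining of the cochlear duct. Cdh1 encodes E-cadherin, the calcium-dependent adhesion protein of adherens junctions. Grhl2 encodes a grainyhead-like transcription factor that maintains epithelial junction genes and is known in humans as a deafness gene. Crb3 encodes a Crumbs protein of apical polarity, Prom2 a prominin of plasma membrane protrusions, and Marveld2 (tricellulin, also a human deafness gene) and Marveld3 tetraspanning proteins of tight junctions. Macrophages are blood-lineage cells that do not form keratin filaments of this kind, which makes the levels in the CD271high sort a question of their own.

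Krt7, Krt8 and Krt18 lie on chromosome 15 (GRCm38.p6, as are all positions here). Krt7 spans chr15:101412403-101427806, Krt8 chr15:101996711-102004342 and Krt18 chr15:102028216-102032026. The starts of Krt8 and Krt18, the canonical pair, are 23874 bases apart on opposite strands. Grhl2 is on the same chromosome at chr15:37232821-37363569, and Krt19 is on chr11:100140810-100145926. Cdh1 lies at chr8:106603350-106670247, Marveld3 at chr8:109947909-109962205, Crb3 at chr17:57062201-57065918, Prom2 at chr2:127526953-127541417 and Marveld2 at chr13:100595957-100616971.

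The promoters of the 3 chromosome 15 keratins are shown because Krt8 and Krt18 followed each other more closely than Krt7 followed either. Without BM, Pearson's r was 0.88 between Krt8 and Krt18, 0.12 between Krt7 and Krt8 and -0.10 between Krt7 and Krt18. With BM, Krt7 had 0.67 with Krt8 and 0.57 with Krt18. Whether the promoters bear on this was not tested. The sequences are the 250 bases before each start, from RefSeq (GRCm38.p6), 5′ to 3′ on the strand of the gene. They lie at chr15:101412153-101412402 (Krt7, plus strand), chr15:102004343-102004592 (Krt8, minus strand) and chr15:102027966-102028215 (Krt18, plus strand). Capitals mark the letters CACCTG, an E-box that repressors of the Zeb and Snail families bind, and the GC box GGGCGG, each read on both strands (CAGGTG and CCGCCC).
Krt7: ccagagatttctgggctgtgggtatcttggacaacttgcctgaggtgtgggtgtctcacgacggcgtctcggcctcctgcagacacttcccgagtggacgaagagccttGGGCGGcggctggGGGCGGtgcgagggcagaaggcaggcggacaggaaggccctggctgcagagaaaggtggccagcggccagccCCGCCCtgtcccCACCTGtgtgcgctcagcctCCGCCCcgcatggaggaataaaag
Krt8: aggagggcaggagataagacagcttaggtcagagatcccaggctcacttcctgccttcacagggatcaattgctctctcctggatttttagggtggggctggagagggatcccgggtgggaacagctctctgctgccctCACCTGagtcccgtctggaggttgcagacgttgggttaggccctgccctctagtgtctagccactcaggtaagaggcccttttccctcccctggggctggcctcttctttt
Krt18: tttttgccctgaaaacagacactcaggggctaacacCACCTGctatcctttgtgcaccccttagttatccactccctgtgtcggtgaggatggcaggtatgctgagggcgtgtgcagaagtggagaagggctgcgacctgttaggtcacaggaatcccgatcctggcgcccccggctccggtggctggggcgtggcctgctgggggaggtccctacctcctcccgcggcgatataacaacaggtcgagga

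Each of the 3 held 1 E-box, 44 bases before the start in Krt7, 111 in Krt8 and 214 in Krt18. Krt7 also held 4 GC boxes, none of which overlapped its E-box, while Krt8 and Krt18 held no GC box. Of 32851 promoters of this length in the table, 17.22% held the E-box letters and 32.74% the GC box. The grainyhead motif AACNGGTT (or AACCNGTT on the other strand) was in 1.79% of all promoters and in none of the 8 promoters that the table listed for 6 of the 10 genes. Crb3 had 3 E-boxes in each of its 2 listed promoters and Prom2 none. A match is a run of letters and says nothing of binding.

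Between 10343 and 11618 probes were detected per array (40.2% to 45.2%), with median raw signals of 252.5 to 323.9. The probes of the 10 genes were read from 19 to 63 beads per array, with a bead standard error of 4.08% to 10.6% of the signal. Cdh1, Krt8 and Marveld3 were detected on all 13 arrays. Krt7, Krt18, Krt19, Grhl2 and Prom2 were detected on 12, all but BM. Crb3 was detected on 2 (GER B and CD271high B) and lay near background elsewhere. Levels are normalized log2 intensities, which can be compared between arrays for 1 probe but not between probes. With 1 to 4 arrays per population, their number limits the precision.

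The labelled cell types were read from marker lists. All 10 hair cell markers were detected on every HC array, with a mean log2 level of the list of 13.43 to 13.61 against 7.58 to 8.66 on the others. The greater epithelial ridge list was highest on GER (12.57 to 12.60) but close on DC (12.36 to 12.43), and the Deiters and pillar cell list was highest on DC (10.93 to 11.13), with HC at 10.35 to 10.71. Of 18 macrophage markers, 16 or 17 were detected on each CD271high array, 3 to 8 on HC, 1 on GER, 1 to 5 on DC and 2 on BM. Their summed linear level was 130932 to 150354 in CD271high, 12691 to 15331 in HC, 987 to 1275 in GER, 1617 to 3160 in DC and 2585 in BM. Most of the HC sum was Laptm5 (mean log2 level 13.48). Besides it, only C1qb (10.07) and Mrc1 (7.85) were detected on all 4 HC arrays. Itgam, which encodes CD11b, was detected on no array of any population, so an absent transcript and an unresponsive probe cannot be told apart. Ptprc, which encodes CD45, was detected on 1 CD271high array, and the other markers of the list on all 3. CD271high also had a higher mean level of the Schwann and satellite glia list (10.12 to 10.32) than GER (7.81 to 8.04) and DC (7.90 to 8.17), and BM was higher still (10.96). Ngfr, the gene of CD271 itself, had its lowest mean transcript level in CD271high (9.01), whereas the gate reads surface protein. The level was 9.21 on the 1 BM array, and the means were 9.82 in GER, 10.61 in HC and 12.49 in DC. The difference from GER, the nearest of the replicated sorts, was -0.82 (limma adjusted p = 0.070), with overlapping arrays. The sort is called CD271high here, after its gate, and its cells are not named.

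**Figure D1:**
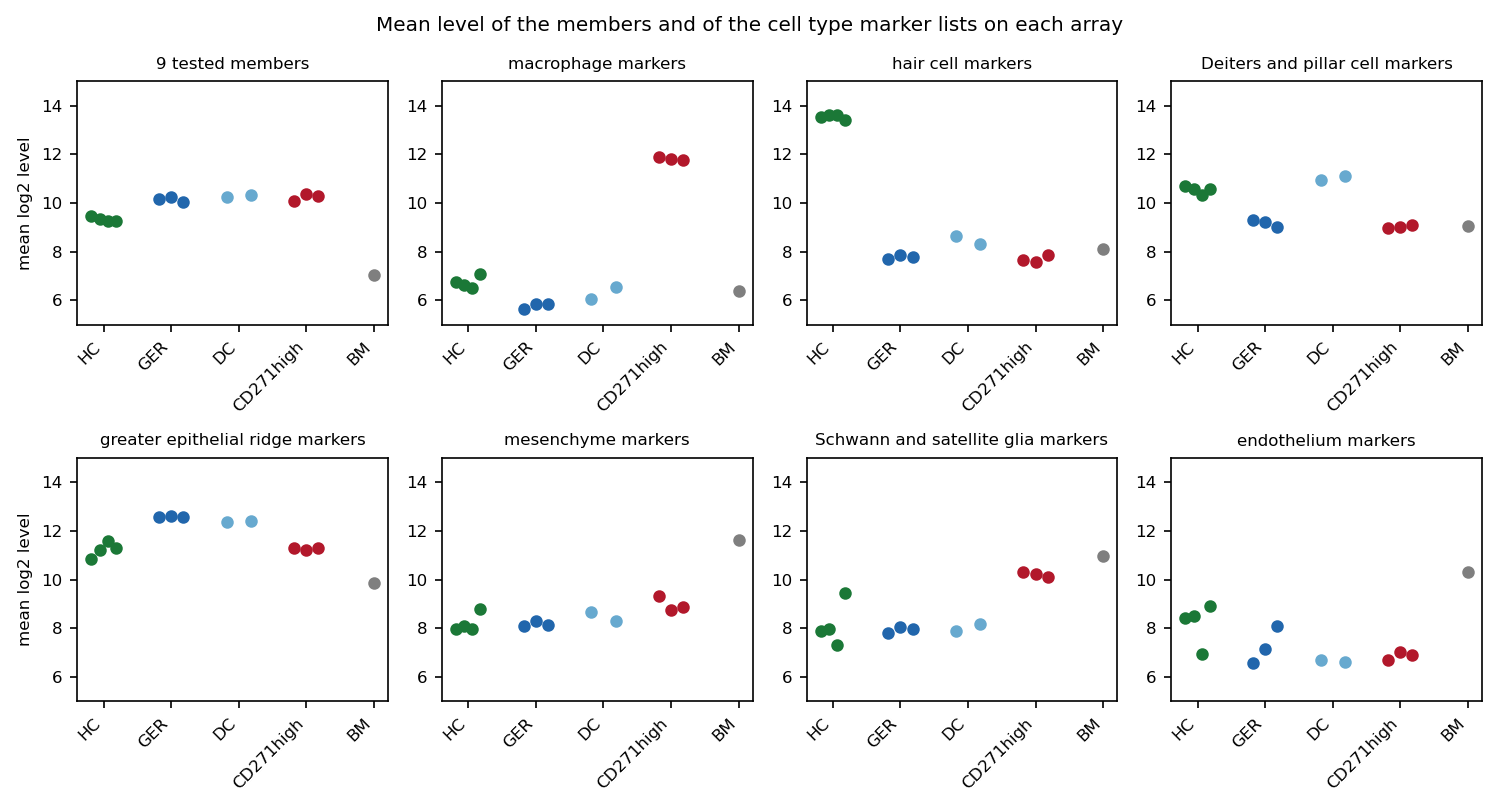
Mean log2 level (y axis) on each array (1 point each, by population on the x axis) of the 9 tested genes and of 7 cell type marker lists. The 9 genes lie between 10.08 and 10.36 in CD271high, overlapping GER (10.03 to 10.24) and DC (10.24 to 10.33), above HC (9.24 to 9.46) and BM (7.06), while the macrophage list is highest in CD271high.

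Krt7, a type II keratin, had log2 levels of 9.81, 10.30 and 10.37 on CD271high A, B and C. It lay at 9.08, 8.39, 8.80 and 8.73 on HC A to D, at 8.35, 8.67 and 8.90 on GER A to C, and at 8.42 and 8.83 on DC A and B. On BM it was 6.69 and not above background. The 3 CD271high arrays were above every other array, while HC, GER and DC overlapped. In the order of means, CD271high (10.16 ± 0.31, SD, n = 3) stood first, and HC (8.75 ± 0.28, n = 4), GER (8.64 ± 0.28, n = 3) and DC (8.63 ± 0.29, n = 2) did not differ beyond their spread.

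Krt8, the type II chain that pairs with Krt18, was 12.15, 12.42 and 12.19 on GER and 12.26 and 12.47 on DC. On CD271high it was 11.46, 12.07 and 12.32, and on HC 11.34, 11.22, 11.40 and 11.05. GER and DC overlapped each other, CD271high ran from just above HC up into their range, and every HC array was below every GER, DC and CD271high array. BM, at 8.05, was detected and lowest. The order of means was DC (12.37 ± 0.15), GER (12.25 ± 0.15), CD271high (11.95 ± 0.44), HC (11.25 ± 0.15) and BM.

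Krt18, the type I partner of Krt8, was 11.54 and 11.62 on DC and 11.12, 11.33 and 11.09 on GER. It was 10.32, 10.50 and 10.92 on CD271high and 9.68, 9.97, 9.36 and 10.15 on HC. The 4 populations did not overlap and stood in the order DC, GER, CD271high, HC, although GER and DC, and CD271high and GER, did not differ by the test below. BM was 5.95, not above background.

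Krt19, a type I keratin that lacks most of the tail domain of other keratins, spread the most of the 9 over the sorts. It was 11.71, 11.64 and 12.19 on CD271high, 10.39, 10.53 and 10.45 on GER, 9.84 and 9.77 on DC, and 7.47, 7.69, 7.97 and 7.40 on HC. BM, at 5.32, was not above background. No 2 populations overlapped, and the order was CD271high (11.85 ± 0.30), GER (10.46 ± 0.07), DC (9.81 ± 0.05), HC (7.63 ± 0.25).

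Grhl2 was 11.79, 11.26 and 11.41 on GER, 11.20 and 11.08 on DC, and 11.22, 11.32 and 11.10 on CD271high. The 4 HC arrays, at 9.71, 9.89, 10.20 and 10.03, were all lower, and BM, at 6.14, was not above background. CD271high overlapped GER and DC, so that these 3 sorts formed 1 band and HC another.

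Cdh1 varied little among HC, GER, DC and CD271high. E-cadherin transcript was 12.16, 12.49, 12.26 and 12.39 on HC, 12.54, 12.38 and 12.33 on GER, 12.39 on both DC arrays, and 12.14, 12.28 and 12.30 on CD271high. BM was lowest at 11.49 and still detected. HC overlapped the other 3 sorts, and the 3 CD271high arrays were just below all GER and DC arrays.

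Marveld3, a tight junction gene, had its own order. It was 11.18 and 11.16 on DC, 10.26, 10.19, 10.08 and 10.31 on HC, 10.34, 10.11 and 10.01 on GER, and 9.69, 9.27 and 8.95 on CD271high. DC stood above all others, HC and GER overlapped, and CD271high was below all 3, with BM at 7.15. A dimmer second probe of the gene was detected on 3 arrays and read 7.16 and 8.42 on DC and 6.22, 5.47 and 5.75 on CD271high, the same order of those populations.

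Prom2 was 9.05 and 9.53 on DC, 8.41, 8.88 and 8.36 on CD271high, and 8.21, 8.05 and 8.01 on GER. HC was lower on 3 of its arrays, at 7.61, 6.98 and 7.31, but HC A, at 8.34, was above all 3 GER arrays. The other 3 probes of Prom2 were detected on 0 arrays. Crb3, at 5.84 to 7.43 over the 13 arrays, had no order that exceeded its spread.

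**Figure D2:**
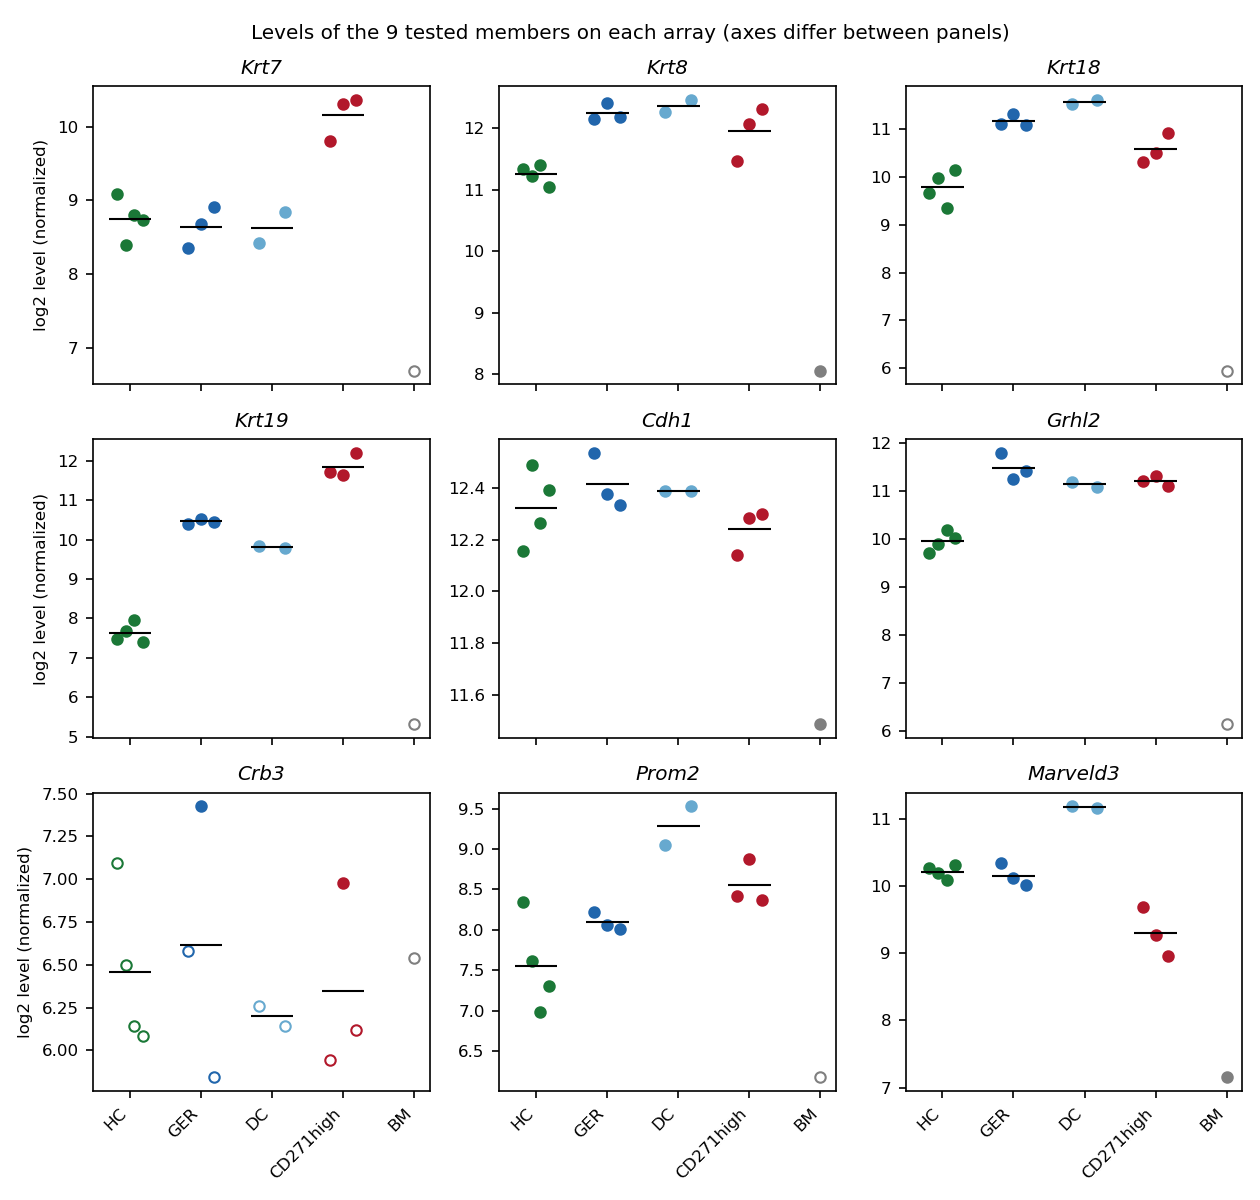
Normalized log2 level (y axis, scaled separately in each panel) of the 9 tested genes on each array, by population (x axis), with the population mean as a line and open points where the probe was not detected. Krt7 and Krt19 are highest in CD271high (means 10.16 and 11.85), Krt8 and Krt18 are highest in DC (12.37 and 11.58), Cdh1 stays between 12.14 and 12.54 outside BM, and Marveld3 is high in DC (11.17) and lower in CD271high (9.30).

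The first comparison set hair cells against GER and DC, which bears on how far the GFP-positive cells share the keratin and junction transcripts of the epithelium around them. Of the 9 genes, 0 were higher in HC, 6 were lower and 3 did not pass. Over all 10088 genes tested, 46.0% passed in this comparison, 19.5% as higher and 26.5% as lower. For 4 of the 9 (Krt8, Krt18, Krt19 and Grhl2) the HC arrays did not overlap the GER and DC arrays, as for 36.7% of all genes. The median difference of the 9 was -1.06 against -0.09 for all genes. In sorted bulk RNA, fewer cells of a type and less RNA per cell cannot be told apart.

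Krt19 was 5.66-fold lower in HC than in the mean of GER and DC (log2 difference -2.50 ± 0.15, SE, limma adjusted p = 8.4e-08), lower on 4 of 4 arrays. Krt8 was 2.08-fold lower (-1.06 ± 0.17, adjusted p = 0.00032). Krt18 was 3.01-fold lower (-1.59 ± 0.18, adjusted p = 1.7e-05). Grhl2 was 2.57-fold lower (-1.36 ± 0.14, adjusted p = 1.1e-05). The other type II keratin, Krt7, differed by 0.11 ± 0.19 (adjusted p = 0.65), with a 95% interval of -0.29 to 0.52. Cdh1 differed by -0.08 ± 0.11 (adjusted p = 0.60), with an interval of -0.32 to 0.17, and Crb3 by 0.05 ± 0.33 (adjusted p = 0.92). The interval of Cdh1 leaves out a difference of the size measured for Krt8, Krt18, Krt19 or Grhl2.

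Prom2 and Marveld3 passed against DC alone but not against GER alone. Prom2 was 2.19-fold lower in HC (-1.13 ± 0.25, adjusted p = 0.0026), but its HC arrays overlapped GER, and against GER alone the difference was -0.53 (adjusted p = 0.14) and against DC alone -1.73 (adjusted p = 0.0011). Marveld3 was 1.37-fold lower (-0.45 ± 0.15, adjusted p = 0.028), a call lost or reversed in 10 of 28 alternatives, with 0.06 against GER alone (adjusted p = 0.81) and -0.96 against DC alone (adjusted p = 0.0022). Of the 9 genes 4 passed against GER alone, where 42.6% of all genes did, and 6 against DC alone, where 35.9% did. Krt8, Krt18, Krt19 and Grhl2 passed both ways.

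The arrays lay on 2 beadchips. Beadchip 1 held 1 HC array (HC A), and beadchip 2 held 3 HC arrays, 1 GER array (GER C), 1 CD271high array and no DC array, so in each a lone array is assumed to vary like the other groups. In a fit blocked by beadchip the difference was -2.51 for Krt19 and -1.41 for Grhl2, and within beadchip 1, where HC A stood alone, it was -2.66 and -1.62. For Krt8 the same fits gave -0.88 and -0.99, and for Krt18 -1.52 and -1.72. Prom2 was called with the block (-0.85) but not within beadchip 1 (-0.37), and Marveld3 likewise (-0.51 and -0.43). On beadchip 2 only HC minus GER C could be had, which is another comparison. It was -2.77 for Krt19 and -1.38 for Grhl2 (adjusted p = 0.0076 and 0.030), beside -2.83 and -1.53 for HC minus GER over all arrays. For Krt8 it was -0.96 and for Krt18 -1.27 (adjusted p = 0.076 and 0.096), and for Prom2 and Marveld3, which had not passed against GER alone, -0.71 and 0.18. Endothelial and glial markers moved between HC arrays, with HC D highest in both lists (8.90 and 9.43), and their part in these results was not tested.

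GER and DC, the CD326-positive gates separated by CD146, were compared to ask whether they differ in these genes. Marveld3 stood 2.02-fold above GER in DC (difference GER minus DC of -1.02 ± 0.20, limma adjusted p = 0.013) and was the 1 gene of the 9 that passed, in a comparison where 4.16% of all genes did, 0.892% as higher in GER and 3.27% as lower. Arrays of the 2 gates did not overlap for 5 of the 9, as for 31.9% of all genes. Prom2 differed by -1.20 ± 0.33 (adjusted p = 0.073), Krt19 by 0.65 ± 0.21 (adjusted p = 0.13), Krt18 by -0.40 ± 0.24 (adjusted p = 0.57) and Grhl2 by 0.35 ± 0.19 (adjusted p = 0.52). For Krt8 the difference was -0.12 ± 0.23 and for Krt7 0.02 ± 0.25, with intervals of -0.62 to 0.39 and -0.54 to 0.57. The median of the 9 was 0.02 against 0.03 for all genes. With 2 DC arrays the Marveld3 call was lost without GER C, DC A or DC B (adjusted p = 0.052, 0.11 and 0.13) and within beadchip 1 (adjusted p = 0.054), while its difference stayed between -1.03 and -0.95 in these 4 fits.

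CD271high was compared with GER, DC and HC in turn to ask how much of the epithelial program that sort held. The 3 comparisons share the CD271high arrays, and those against GER, DC and HC share arrays with the comparisons above, so their values are set side by side and are not independent. Krt7 and Krt19 were higher in CD271high than in each of the 3, Marveld3 was lower than in each, and Krt8, Krt18, Grhl2 and Prom2 lay above HC. Against GER 2 of the 9 were higher, 1 lower and 6 did not pass, where 30.6% of all genes passed (14.5% higher, 16.1% lower). Against DC 2 were higher, 2 lower and 5 did not pass, where 25.0% of all genes passed (12.2% higher, 12.8% lower). Against HC 6 were higher, 1 lower and 2 did not pass, where 55.0% of all genes passed (28.3% higher, 26.7% lower). Arrays did not overlap for 6, 6 and 7 of the 9, as for 43.9%, 53.4% and 54.6% of all genes. The medians of the 9 were -0.27, -0.15 and 0.79 against -0.10, -0.08 and -0.01 for all genes.

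Krt19 was 2.62-fold higher in CD271high than in GER (log2 difference 1.39 ± 0.19, SE, limma adjusted p = 0.00014). The same gene was 4.11-fold higher than in DC (2.04 ± 0.21, adjusted p = 1.9e-05). Against HC it was 18.5-fold higher (4.21 ± 0.17, adjusted p = 1.7e-09), the widest difference of any of the 9 genes in these comparisons. Krt7 was 2.86-fold higher than in GER (1.52 ± 0.23, adjusted p = 0.00031), 2.89-fold higher than in DC (1.53 ± 0.25, adjusted p = 0.00075) and 2.66-fold higher than in HC (1.41 ± 0.21, adjusted p = 0.00013). For both genes 3 of 3 CD271high arrays were above every array of the other sorts.

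By mean level, Krt8 and Krt18 in CD271high stood between HC and the CD326-positive gates, although the Krt8 arrays overlapped those of GER and DC. Krt8 was 1.62-fold higher than in HC (0.70 ± 0.19, adjusted p = 0.0088), and differed from GER by -0.30 ± 0.21 (adjusted p = 0.31, interval -0.75 to 0.15) and from DC by -0.41 ± 0.23 (adjusted p = 0.23). Krt18 was 1.73-fold higher than in HC (0.79 ± 0.20, adjusted p = 0.0054) and 2.0-fold lower than in DC (-1.0 ± 0.24, adjusted p = 0.0088). From GER it differed by -0.60 ± 0.21 (adjusted p = 0.053), and this value passed under 7 of 27 alternatives. Without DC B the Krt18 difference from DC was -0.96 (adjusted p = 0.069).

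Grhl2 was 2.39-fold higher in CD271high than in HC (1.26 ± 0.16, adjusted p = 3.7e-05) and differed from GER by -0.28 ± 0.17 (adjusted p = 0.26) and from DC by 0.07 ± 0.19 (adjusted p = 0.84). Prom2 was 1.99-fold higher than in HC (0.99 ± 0.28, adjusted p = 0.0092), with 0.46 ± 0.30 against GER (adjusted p = 0.28) and -0.74 ± 0.33 against DC (adjusted p = 0.13). Cdh1 differed by -0.17 from GER, -0.15 from DC and -0.08 from HC (adjusted p = 0.38, 0.55 and 0.61), and the widest of the 3 intervals reached from -0.48 to 0.19. Marveld3 was lower than in all 3: 1.80-fold against GER (-0.85 ± 0.18, adjusted p = 0.0039), 3.64-fold against DC (-1.87 ± 0.20, adjusted p = 3.0e-05) and 1.87-fold against HC (-0.91 ± 0.17, adjusted p = 0.00071). Crb3 did not pass in any of the 3 comparisons.

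**Figure D3:**
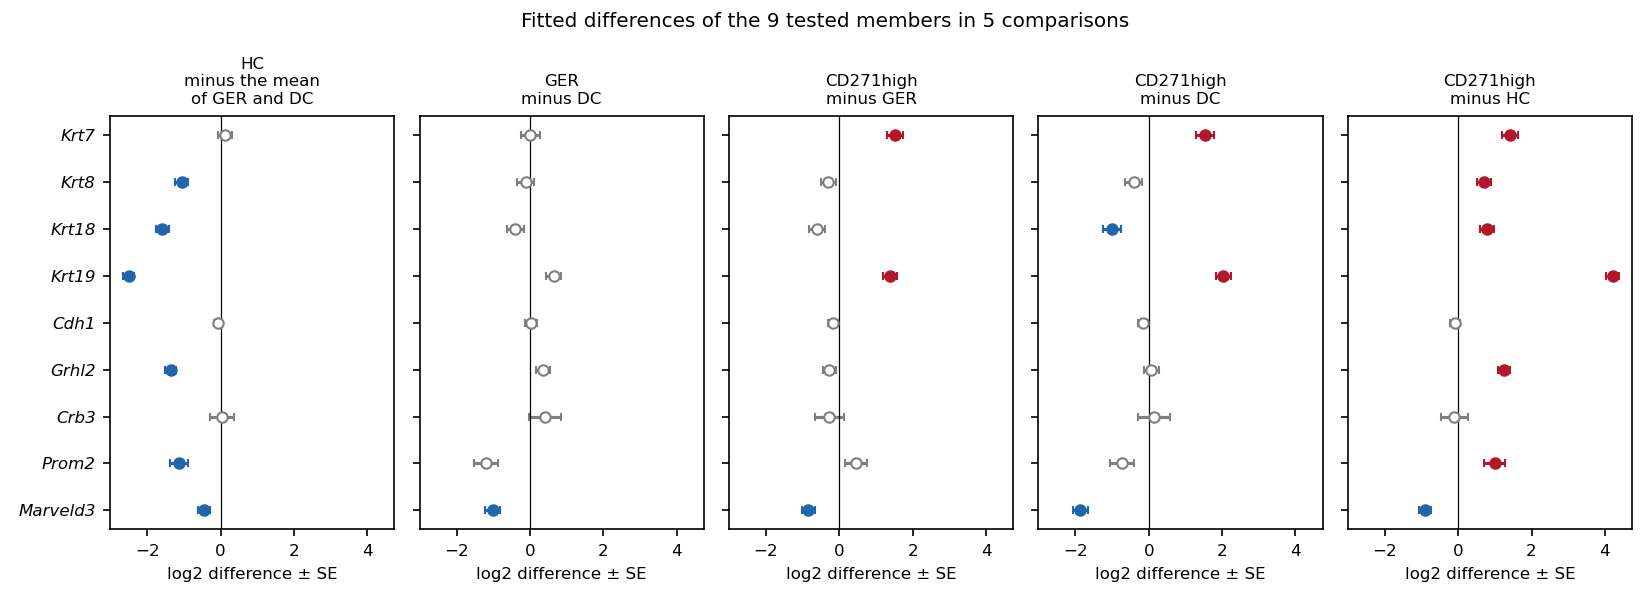
Log2 difference (x axis) with its standard error for the 9 tested genes (y axis) in the 5 comparisons, 1 panel each, filled where the adjusted p passed 0.05. Krt19 runs from -2.50 in HC to 4.21 in CD271high against HC, Cdh1 stays between -0.17 and 0.03, and Marveld3 is below 0 in all 5.

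Within beadchip 1 the difference of Krt19 from GER was 1.45, from DC 2.11 and from HC, there the lone array HC A, 4.44, and that of Krt7 was 1.82, 1.71 and 1.25. Within beadchip 2, where 1 CD271high array faced 1 GER array, Krt19 differed by 1.25, Krt7 by 0.90 and Marveld3 by -0.32, and none of these passed (adjusted p = 0.16, 0.24 and 0.63). Against the 3 HC arrays there, the 1 CD271high array differed by 4.02 in Krt19, 1.17 in Krt7 and 1.18 in Grhl2 (adjusted p = 0.0015, 0.037 and 0.027), a lone array again being assumed to vary like the other groups. Krt8 (0.24), Krt18 (0.49), Prom2 (1.11) and Marveld3 (-0.50) did not pass against HC within beadchip 2, nor did Prom2 within beadchip 1 (0.28). With the beadchip as a block, every gene of the 9 that passed in the 5 comparisons still passed. The macrophage and glial lists were higher in CD271high than in GER and DC, as Krt7 and Krt19 were, and their part in these differences was not tested.

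BM, the CD326-negative sort from below the basilar membrane, was below every other array for 8 of the 9 genes, all but Crb3, as for 15.9% of all genes. With 1 array there is no replicate check and no test. Krt8 was 19.9-fold lower on BM than the DC mean and 14.9-fold lower than the CD271high mean. Marveld3 was 16.2-fold and 4.45-fold lower in the same order. Where BM was not above background, its level was set to the lowest that counted as detected on that array, and the fold is then a lower bound. By that bound Krt18 was at least 22.4-fold lower than in DC and Grhl2 at least 16.6-fold lower. Krt19 was at least 27.0-fold and Krt7 at least 8.39-fold lower than in CD271high. Cdh1 was the exception in size, 1.87-fold lower than in DC and 1.69-fold lower than in CD271high. Cdh1 was read by 1 probe, and whether all of its signal came from E-cadherin transcript was not tested. Mesenchyme (11.64) and endothelium (10.31) marker lists had their highest mean levels on the BM array.

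Across the 13 arrays the 9 genes did not vary as 1 block. Pearson's r between Krt8 and Krt18 was 0.97, and 0.88 over the 12 arrays without BM. Krt8 and Grhl2 had 0.96 and 0.81, and Krt19 and Grhl2 0.84 and 0.85. Krt7 and Krt8, both type II chains, had 0.67 with BM and 0.12 without it, and Krt7 and Marveld3 0.21 and -0.80. These are descriptions over arrays that share populations and 1 normalization, and the low BM array carries much of the first value of each pair.

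The 8 genes outside the group whose levels followed the mean of the 9 most closely were Prss8, Cmtm8, Large2, Cldn3, Cldn6, St14, Grb7 and Nfe2, with r of 0.97 to 0.99 over the 13 arrays. Prss8 and St14 encode the membrane serine proteases prostasin and matriptase, and Cldn3 and Cldn6 are claudins of tight junctions. Mean levels of Prss8 were 11.34 in HC, 12.59 in GER, 12.47 in DC, 12.60 in CD271high and 7.81 in BM. Those of Cldn3 were 11.45, 13.05, 12.77, 12.94 and 8.68, and those of Cldn6 12.41, 13.61, 13.48, 13.79 and 9.29. They were picked for following the mean of the 9, so their order of populations is part of that choice. Without BM their r was 0.88 to 0.96.

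The counts of the other gene lists below are to be read against the shares of all genes that passed: 19.5% higher and 26.5% lower in HC, 4.16% between GER and DC, and in CD271high 14.5% higher and 16.1% lower against GER, 12.2% and 12.8% against DC, and 28.3% and 26.7% against HC. With each of the 12 arrays of HC, GER, DC and CD271high left out in turn, a check added after the data were seen, calls that were lost are given beside the gene.

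Of 24 other keratins on the array, 5 passed the filter: Krt10, Krt15, Krt23, Krt80 and Krt222. Krt23, a type I keratin, had levels of 13.16, 13.32 and 12.97 on CD271high, 10.78, 10.92 and 10.03 on GER, 10.82 and 11.30 on DC, and 8.37, 8.13, 7.93 and 8.63 on HC, with 6.62 on BM. This is the same order as Krt19 apart from GER and DC, which overlapped. Krt23 was 5.86-fold lower in HC than in GER and DC (-2.55 ± 0.21, limma adjusted p = 1.3e-06) and 4.25-fold higher in CD271high than in DC (2.09 ± 0.28, adjusted p = 0.00018). Krt15, a type I keratin of basal epithelial cells, was 3.21-fold higher in CD271high than in DC (1.68 ± 0.32, adjusted p = 0.0020). It was undetected on all HC arrays and at least 1.35-fold lower there than in GER and DC (adjusted p = 0.0018). In all, 1 of the 5 was higher and 3 lower in HC (19.5% and 26.5% of all genes), and 0 passed between GER and DC (4.16%). The higher one, Krt222, was detected on 2 HC arrays and 0 GER and DC arrays. It passed the filter only through HC, so its call is no independent support. In CD271high 2 of the 5 were higher and 0 lower against DC (12.2% and 12.8%) and against GER (14.5% and 16.1%).

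Epithelial transcription and splicing factors were lower in HC for 6 of 11 tested genes and higher for 0 (26.5% and 19.5% of all genes), with a median of -0.96 against -0.09 for all genes. Elf3, an epithelial Ets factor, was 3.23-fold lower (-1.69 ± 0.20, adjusted p = 2.2e-05). Between the CD326-positive gates, Elf3 was 2.19-fold higher in GER (1.13 ± 0.26, adjusted p = 0.033), a call lost without GER B, GER C, DC A or DC B (adjusted p = 0.099 to 0.24). Trp63, the p63 gene of basal epithelium, was at least 1.5-fold higher in CD271high than in DC (adjusted p = 6.7e-05), where it was undetected. Trp63 was detected on 3 CD271high arrays and 1 GER array, so without CD271high it would not have passed the filter. In the other direction, Gata3, a factor needed for inner ear development, was 5.59-fold lower in CD271high than in DC (-2.48 ± 0.25, adjusted p = 1.9e-05), and Klf5 3.71-fold lower (-1.89 ± 0.39, adjusted p = 0.0033). Counts in CD271high were 1 higher and 2 lower against DC (12.2% and 12.8% of all genes). Against GER they were 1 and 4 (14.5% and 16.1%), and against HC 7 and 2 (28.3% and 26.7%).

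Apical junction and polarity genes moved both ways. In HC 4 of 16 were higher and 7 lower (19.5% and 26.5% of all genes), with a median of -0.41. Cldn4, a claudin, was 3.69-fold lower (-1.88 ± 0.16, adjusted p = 1.4e-06), and Lsr, an angulin gene of tricellular junctions, 3.19-fold lower (-1.67 ± 0.39, adjusted p = 0.0042). Tjp3, a scaffold gene of tight junctions, was 1.70-fold higher (0.77 ± 0.23, adjusted p = 0.018, and 0.053 without DC B). Between GER and DC 0 of the 16 passed the limma test. In CD271high 0 were higher and 4 lower against DC (12.2% and 12.8% of all genes). Among the lower was F11r (-0.95 ± 0.16, adjusted p = 0.00088), an adhesion molecule of tight junctions. The counts were 0 and 3 against GER (14.5% and 16.1%), and 5 and 7 against HC (28.3% and 26.7%).

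Adherens junction and desmosome genes were higher in HC for 2 of 12 and lower for 6 (19.5% and 26.5% of all genes). Ppl, which encodes periplakin of the cornified envelope and desmosomes, was 3.95-fold lower (-1.98 ± 0.21, adjusted p = 9.5e-06), and Lad1, ladinin, 3.68-fold lower (-1.88 ± 0.18, adjusted p = 5.4e-06). Cdh2, N-cadherin, was 1.93-fold higher in HC (0.95 ± 0.35, adjusted p = 0.043), a call lost in 7 of the 12 fits with 1 array left out (adjusted p = 0.054 to 0.16). Nectin1 was at least 1.31-fold higher (adjusted p = 7.4e-05), detected on 4 of 4 HC arrays and 0 of 5 GER and DC arrays. Its levels on CD271high and BM lay under the lowest detected level of those arrays. Nectin1 thus passed the filter only through HC, the sort where it was high, so its call is no independent support. DC exceeded GER in Lad1 (GER minus DC -1.33 ± 0.25, adjusted p = 0.0084) and Nectin3 (-0.78 ± 0.19, adjusted p = 0.044). The Lad1 call was lost without DC B (-0.93, adjusted p = 0.16), and that of Nectin3 in 9 of the 12 fits (adjusted p = 0.052 to 0.31). Both were lower in CD271high than in DC, Lad1 4.15-fold and Nectin3 3.48-fold (adjusted p = 6.6e-05 and 2.6e-05), as Marveld3 was. Counts in CD271high were 0 higher and 2 lower against DC (12.2% and 12.8% of all genes). Against GER they were 2 and 2 (14.5% and 16.1%), and against HC 4 and 4 (28.3% and 26.7%).

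Of 23 epithelial surface, protease and sorting genes, 4 were higher and 14 lower in HC (19.5% and 26.5% of all genes), with a median of -0.74 against -0.09 for all genes. Cd24a, a surface sialoglycoprotein, was 4.02-fold lower (-2.01 ± 0.21, adjusted p = 8.5e-06). Epn3, which encodes an epsin of endocytosis, was 2.82-fold higher in HC (1.5 ± 0.20, adjusted p = 8.4e-05). Lgals3, galectin 3, was the 1 gene that passed between GER and DC (-1.61 ± 0.41, adjusted p = 0.049), a call lost in 10 of the 12 fits (adjusted p = 0.051 to 0.34). Against DC, CD271high was higher in Fxyd3, a regulator of the sodium pump (2.37 ± 0.25, adjusted p = 2.5e-05), and in Mal, a protein of apical transport (2.19 ± 0.43, adjusted p = 0.0026). It was lower in Itgb6, an epithelial integrin chain (-2.31 ± 0.25, adjusted p = 2.5e-05). Mal was also high on BM (11.94), and on HC D (9.82) against 7.98 to 8.23 on HC A to C. BM was the array with the highest glial list, and HC D the HC array with the highest. The part of glial cells in the level of Mal was not tested. Counts in CD271high were 2 higher and 9 lower against DC (12.2% and 12.8% of all genes). Against GER they were 3 and 11 (14.5% and 16.1%), and against HC 6 and 8 (28.3% and 26.7%).

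Of 8 tested mesenchymal genes and repressors of the epithelial state, 4 were higher and 0 lower in CD271high against GER and against HC, and 3 and 0 against DC, where 14.5%, 28.3% and 12.2% of all genes were higher. Zeb1, a repressor of Cdh1 known to bind E-boxes, was at least 8.0-fold higher in CD271high than in DC (adjusted p = 0.00087). Its levels were 10.19, 9.54 and 10.18 on CD271high, 6.72 and 5.97 on DC, 6.13, 6.12 and 7.21 on GER, 7.75, 7.67, 6.95 and 9.54 on HC and 11.97 on BM. Zeb2 was 12.3-fold higher in CD271high than in DC (3.62 ± 0.87, adjusted p = 0.0087, and 0.076 without DC B). The CD271high arrays thus held transcripts of Zeb1 and Zeb2 and of Cdh1, Grhl2 and the keratins, which a bulk sort does not assign to the same cells. Macrophages, glia and mesenchyme also express Zeb2, and their part in its level here was not tested. In HC, Zeb1 was 2.95-fold higher than in GER and DC (1.56 ± 0.45, adjusted p = 0.014), with overlapping arrays. HC D, which had the highest Zeb1 of the HC arrays, was also the highest of them in the endothelial and glial lists, and without it the difference was 1.04 (2.06-fold, adjusted p = 0.018). Without DC B it was 1.38 (adjusted p = 0.057). The part of those other cell types was not tested. Vim, vimentin, was 1.75-fold lower in HC (-0.81 ± 0.21, adjusted p = 0.0075).

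**Figure D4:**
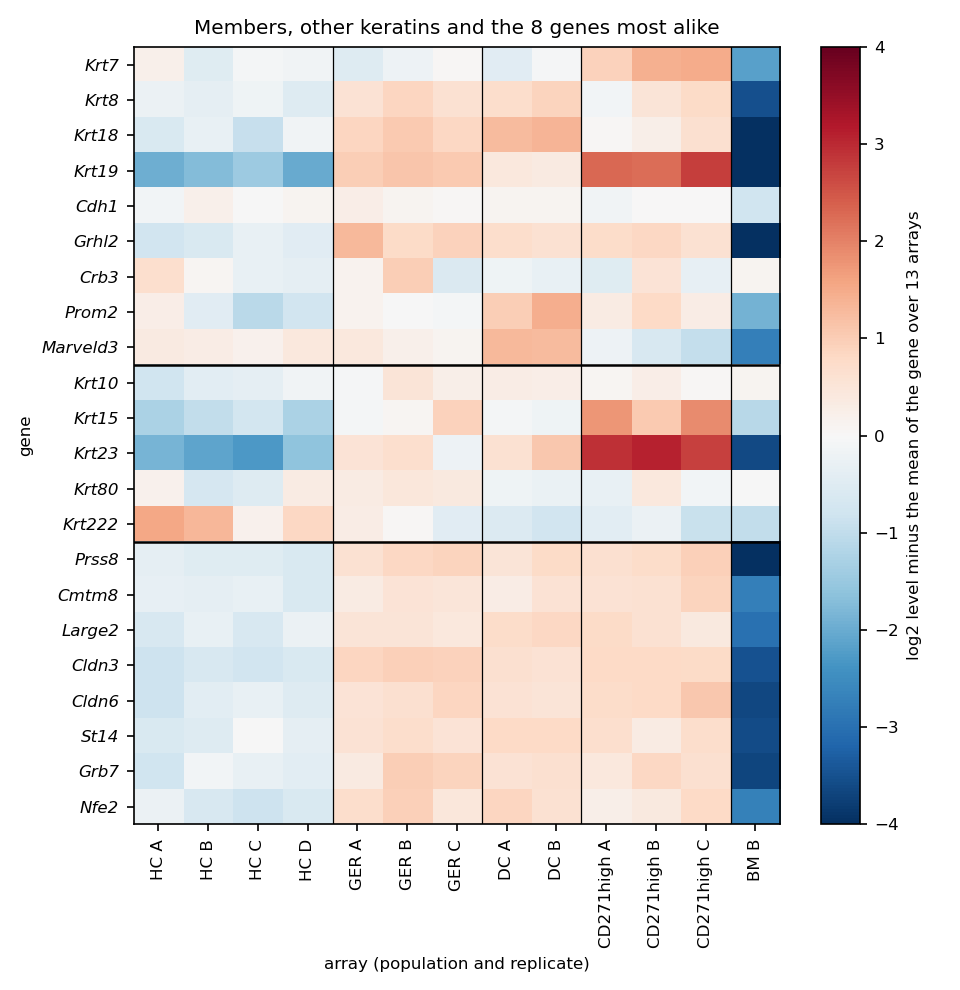
Log2 level minus the mean of each gene over the 13 arrays (colour) for the 9 tested genes, the 5 other keratins that passed the filter and the 8 genes most alike (rows), on each array (columns). The BM column is low for most genes, and Krt19, Krt23, Krt15 and Krt7 are highest in the 3 CD271high columns.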

How the data were processed

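The deposited scanner table gives the intensity of each probe as a mean over beads, without normalization, on 13 arrays. Per the file headers, it also holds a detection p-value, a bead standard error and a bead count. A further table by the authors holds quantile-normalized log2 values of the same arrays and served as an alternative. The scanner software is not given in the sources used here. RNA was extracted with a column kit and checked on a Bioanalyser, per the labels' protocols.

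Probes were named through the GRCm38.p6 gene table: 24356 matched by RefSeq accession or Entrez ID and 1341 kept the symbol of the file. In R 4.3.3, neqc of limma 3.58.1 was run on these intensities, with normexp parameters from the detection p-values, an offset of 16, quantile normalization and log2. A probe was kept where its detection p was below 0.01 for 2 or more arrays (13192 probes), and the probe with the highest mean stood for its gene, which left 10088 genes and removed 7950. The linear model of limma had 1 mean for each population and used all 13 arrays, with eBayes moderation (8 residual and 3.7 prior degrees of freedom). The 5 comparisons were tested two-sided, with Benjamini-Hochberg adjustment over all genes and a threshold of 0.05. Each ± on a difference is the SE of the fit. A gene undetected on every array of 1 side gets a fold stated as "at least", computed with the lowest detected level of each array on that side.

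The 10 genes and the other lists were chosen with earlier results of these data known. Named genes were all 10, the 2 highest and 2 lowest called genes of each list in 3 comparisons (HC, GER against DC, CD271high against DC), and the 8 genes most correlated with the mean of the 9; the text draws its examples from these, and some of them are not reported here. Cldn3, Cldn6, Prss8 and St14 stood in a list as well. Itgam, Ptprc and Ngfr were named outside this rule, after their values were seen. Populations and replicate letters were taken from the titles; 1 description gives GER C the letter A. Deviations from the population means had a median r of 0.05 over 15 same-letter pairs of arrays (4 over 0.1). Over 38 different-letter pairs it was -0.0004 (8 over 0.1). With so few arrays per population these deviations are tied to each other, so this cannot exclude pairing by letter. The main fit used no pairing. In a simulation, 100 of 10088 genes were shifted by 1 on the log2 scale and 100 by 2, and the rest had equal means. The fit recovered 79%, 47%, 58%, 48% and 66% of those shifted by 1, in the order HC, GER against DC, and CD271high against GER, DC and HC. Of those shifted by 2 it recovered 96% to 98%. More genes passed in the data, which loosens the adjusted threshold, so these shares do not give the power of the tests reported. Probe sequences were not used here, so cross-hybridisation was not checked for any probe. This includes the Krt8 and Krt18 probes with their processed pseudogenes, and the Cdh1 probe.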

Additional observations from a re-analysis of the deposited data

How the results depend on the processing

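Every call among the 9 genes was recomputed under other normalizations, filters, probe rules, variance models, beadchip terms, references and with each array left out. The authors' values and those without background correction gave the same differences and are counted once. Of the recomputed values of called genes 528 kept direction and call, 26 lost the call and 2 reversed, and of those not called 575 stayed, 15 gained a call and 18 changed sign. The calls of Krt19 and Grhl2 in HC, of Krt19, Krt7 and Grhl2 in CD271high against HC, and of Krt19, Krt7 and Marveld3 against DC held in all that were run. The 2 reversed calls were Marveld3 in HC, at 0.057 against GER alone and 0.18 within beadchip 2, where the reference is also GER alone, by the 1 array there, and it lost its call in 8 other alternatives. Between GER and DC 2 of the 9 passed on the authors' values (the same as without background correction), with median scaling or with only these populations fitted, 3 with array weights (649 genes in all) and 0 within beadchip 1. Within beadchip 1, 3059 genes passed in HC. Within beadchip 2 the counts were 1426 for HC against GER C (2 of the 9), 475 for CD271high against GER (0 of the 9, 1 array each) and 2636 against HC (3 of the 9), with fewer arrays in each fit. With the replicate block the counts of the 9 were 6, 1, 4, 4 and 7 and those of all genes 4583, 457, 3289, 2581 and 5486, and the block changed no call except Krt18 against GER (adjusted p = 0.048). With 1 array left out, counts of all genes ranged from 3920 to 4600 for HC, 141 to 495 for GER against DC, 2427 to 3256, 1593 to 2729 and 4926 to 5501 for CD271high against GER, DC and HC, and those of the 9 from 5 to 6, 0 to 2, 3 to 4, 3 to 5 and 7 to 7. In the comparisons with DC alone, the DC arrays moved counts: GER against DC gave 214 without DC A and 141 without DC B, CD271high against DC 1642 and 1593, a lone DC array being assumed to vary like the other groups. Signs of uncalled values turned for Krt7 in GER against DC (-0.015 with median scaling, -0.12 within beadchip 1, -0.070 with the replicate block, -0.00058, -0.11 and -0.19 without GER B, GER C or DC A, and -0.19 to 0.22 over all arrays left out) and in HC (-0.26 within beadchip 2). Cdh1 turned in HC (0.047 within beadchip 2), in CD271high against HC (0.14 within beadchip 1) and in GER against DC (-0.033 without GER A, up to 0.069 without GER C). Crb3 turned in HC (-0.17 without HC A, -0.15 without GER C, up to 0.17 without HC D, -0.16 against GER alone), in CD271high against HC (0.10, 0.091 and 0.0041 without HC A, CD271high A or CD271high C, down to -0.23 without HC D) and against GER (0.10 within beadchip 2). Grhl2 in CD271high was 0.35 against the mean of HC, GER and DC. The cause of these changes was not tested, and beadchip 2 has no DC array, so GER against DC, CD271high against DC and HC against the mean of GER and DC could not be fitted there.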

Other observations

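CD271high C was the highest of the 3 for Krt7 (10.37), Krt8 (12.32), Krt18 (10.92) and Krt19 (12.19) and the lowest for Marveld3 (8.95). CD271high A, the only one of the 3 on beadchip 2, was the lowest for Krt7 (9.81), Krt8 (11.46) and Krt18 (10.32) and the highest for Marveld3 (9.69). The SD of Krt8 was 0.44 in CD271high against 0.15 in each of HC, GER and DC. The macrophage list had mean levels of 11.89, 11.79 and 11.75 on CD271high A, B and C.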
